A study of Mus musculus with 48 samples.

Results

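The cell cycle and DNA replication genes described here are 42 genes listed by role: D-type cyclins and their kinases, E-type cyclins and Cdk2, CDK inhibitors, E2F1 and the pocket proteins, the replicative helicase, other replication factors, the mitotic cyclins with Cdk1, and the mitotic machinery with markers of proliferation. A gene counted as measured where a probe named for it had a detection p-value under 0.01 on at least 3 of the 48 arrays, and the brightest such probe was used. By this rule 37 of the 42 genes were measured, out of 10739 genes measured on the arrays in all. Of the 37, 23 were detected on all 48 arrays. Ccnb1 and Mki67 have no named probe in the annotation used, and the probes of Ccna2, Ccnb2 and Bub1 were detected on 0 arrays, so that Cdk1 is the one measured gene of the group of mitotic cyclins.

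RNA came from osteoblasts, which form bone, taken as primary cells from the calvaria of Osmr KO mice, which lack a working oncostatin M receptor gene, and of WT mice, both on a C57BL/6 background. Frozen cells were thawed, expanded and differentiated for 17 days. Oncostatin M of mouse (mOSM) or of human origin (hOSM), or leukemia inhibitory factor (mLIF in the titles, although the treatment protocol calls it human), was then added at 10 ng/ml. RNA was taken after 1 h and 6 h, also from controls without ligand, which makes 16 groups of 3 arrays. The design text states that hOSM and LIF reach mouse cells through the LIF receptor alone, and mOSM through the oncostatin M receptor as well. Replicates 1, 2 and 3 of a genotype are called cultures here. Whether they came from separate animals is not stated, so the p-values reflect only how far these samples spread, which may be technical. Levels are log2 intensities, normalized between arrays by the authors, and differences are log2 differences ± SE with n = 3 arrays per group. The level of Osmr was 7.36 ± 0.74 on KO arrays and 10.68 ± 0.80 on WT arrays (SD, n = 24 each), and the highest KO array, at 8.75, lay below the lowest WT array, at 9.51. The labels call the cells osteocytes: the osteocyte genes Phex and Pdpn were detected on 48 arrays, Mepe on 12, Dmp1 on 7 and Sost and Fgf23 on 0. The osteoblast genes Col1a1, Alpl, Sp7 and Pth1r were detected on 48 arrays, Bglap on 43 and Ibsp on 33, and Spp1 has no named probe. Markers of other cell types were mixed. Of the macrophage and osteoclast list, Lyz2, Cd14 and Ctsk were detected on 48 arrays, Csf1r on 45 and Adgre1 on 28, and Ptprc and Acp5 on 0. Of the endothelial list, Tek was detected on 48 arrays and Kdr on 11, and Pecam1 and Cdh5 on 0. The chondrocyte genes Col2a1 and Sox9 were detected on 48 arrays and Acan on 16. Among adipocyte genes, Pparg was detected on 48 arrays, Adipoq on 40 and Fabp4 on 6.

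A cell enters the division cycle when D-type cyclins with Cdk4 or Cdk6, and then E-type cyclins with Cdk2, phosphorylate the retinoblastoma family of pocket proteins. The pocket proteins then release E2F factors, which drive transcription of the replication genes, while CDK inhibitors of the Ink4 and Cip/Kip families hold the kinases back. Later, Cdk1 and the Aurora and Polo kinases run mitosis under the watch of the spindle checkpoint. In bone, osteoblast precursors divide and then largely leave the cycle as they mature, and members of the oncostatin M family act on both steps.

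Large differences in the levels of these genes lay between cultures, and they set how firmly each ligand effect can be stated. In the third KO culture, 10 of the 37 genes lay, on all 8 of its arrays, below every one of the 40 other arrays: Cdkn1c, Rrm1, Tyms, Cdk1, Top2a, Birc5, Aurkb, Plk1, Cdc20 and Bub1b. This held for 305 of all 10739 genes, or 2.84%, and for 0 of the 37 genes in each of the other 5 cultures. Of the 9 measured genes of mitosis, Cdk1 included, 7 were among the 10. Beyond the listed genes, it held for 8 of 19 other mitosis genes and for 1 of 33 other replication genes.

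Plk1, the Polo kinase of mitotic entry and exit, had a lowest, median and highest level of 4.64, 5.11 and 5.39 in the third KO culture, where it was above background on 0 of 8 arrays. In the first and second KO cultures its medians were 7.91 and 7.11, and in the 3 WT cultures 7.38, 7.09 and 6.92. Top2a, the topoisomerase that untangles replicated chromosomes, and Aurkb, a kinase of chromosome segregation, were likewise above background on 0 of those 8 arrays. Cdc20, which activates the anaphase-promoting complex, stayed detectable there, with a lowest, median and highest level of 5.92, 6.24 and 6.69, and its first KO culture lay above all other arrays, between 8.56 and 8.92. Of the 37 genes, Cdc20 alone lay above all other arrays in any culture. Of all 10739 genes, 0.177% did so in the first KO culture, and between 0.0279% and 3.8% in each of the others. The early G1 gene Ccnd1 did not follow, as the plot of levels by culture shows.

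**Figure D1:**
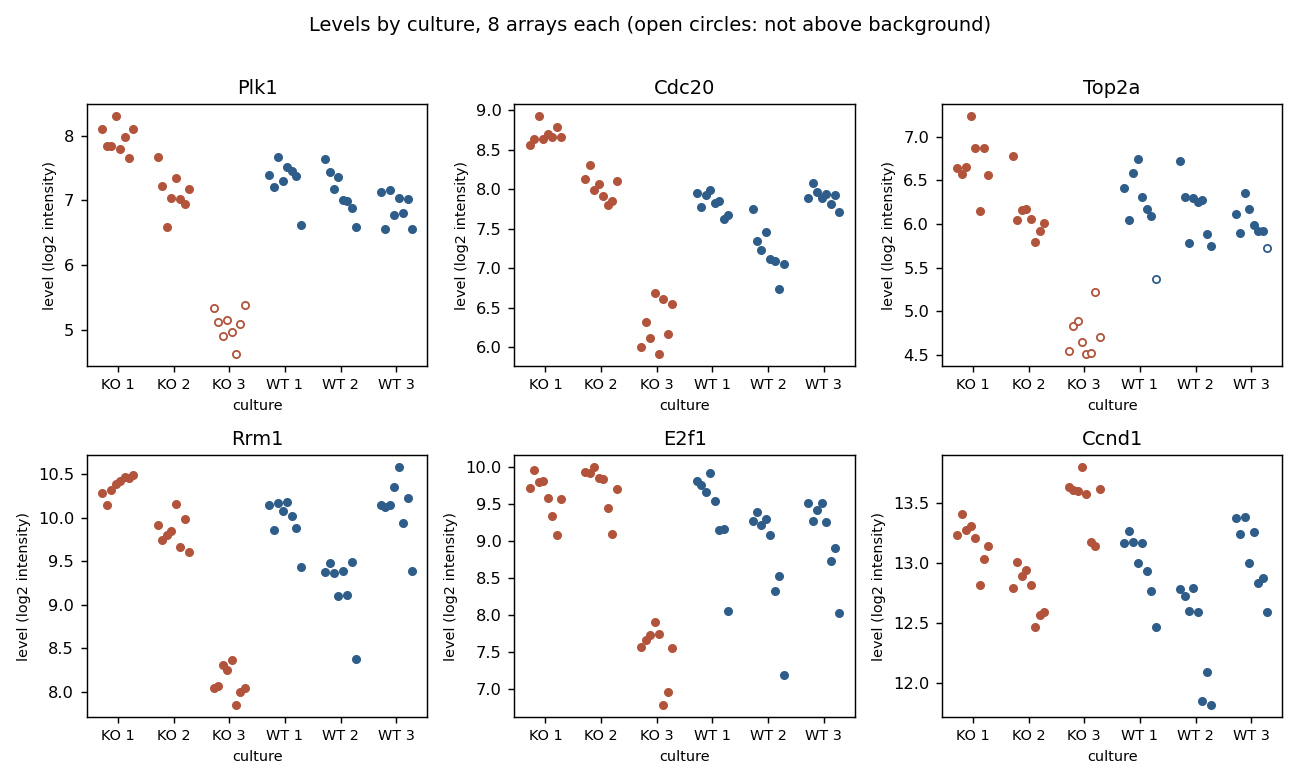
Level (log2 intensity) of Plk1, Cdc20, Top2a, Rrm1, E2f1 and Ccnd1 on each array, by culture, with the KO cultures left of the WT cultures, 8 arrays per culture and open circles for arrays not above background. Plk1, Cdc20, Top2a and Rrm1 in the third KO culture lie below all 40 other arrays, E2f1 overlaps there with 1 WT array, and the lowest E2f1 and Rrm1 points of each WT culture are its arrays at 6 h of mOSM.

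Among the lists of cell type markers, the sums of the chondrocyte and adipocyte lists alone set the same culture apart. The summed linear level of the 3 measured chondrocyte markers ran from 28000 to 37100 in the third KO culture, against 5610 to 23100 on the 40 other arrays. That of the 3 adipocyte markers ran from 458 to 897, against 1590 to 11200. The sums of the other lists overlapped with the 40 other arrays. They ran from 16500 to 22000, against 14100 to 30100, for osteoblast markers, and from 6890 to 15900, against 8060 to 18900, for osteocyte markers. Macrophage and osteoclast markers ran from 10500 to 12400, against 7390 to 33700, and endothelial markers from 111 to 207, against 94.4 to 719. The first principal component of all genes, with 29.6% of the variance, averaged 60.7 in this culture and between -17.7 and -0.1 in the others. The part of these differences in the levels of the cell cycle genes was not tested. Marker sums also differed between mOSM and control arrays of WT cultures at 6 h, without overlap for the osteocyte markers. Those of 4 measured osteocyte markers, of 6 listed, ran from 17400 to 18900 with mOSM, against 9430 to 10400 in controls. Within that list Pdpn, the brightest, averaged 14.13 with mOSM, against 13.23 in controls, and rose by 0.90 (adjusted p = 0.00127), Phex fell by 0.61 with the block alone (adjusted p = 0.509, and 0.00576 with the block), Mepe was not called and Dmp1 was above background on 0 of these arrays. Those of the 3 chondrocyte markers ran from 5610 to 13400, against 10600 to 20800, and those of the 3 adipocyte markers from 1590 to 6590, against 3240 to 9880. Those of 2 endothelial markers, of 4, ran from 94.4 to 177, against 147 to 423, and those of 5 macrophage and osteoclast markers, of 8, from 7610 to 25500, against 8310 to 30600. Sums of 6 osteoblast markers, of 7, ran from 14700 to 25100 with mOSM, against 17800 to 30100 in controls. Their part in the effects of mOSM below was not tested. In such bulk samples, fewer cells in a phase and less RNA per cell cannot be told apart.

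Each comparison was therefore fitted in 2 ways. The main model has 1 mean per group. The second adds a term for each culture, a replicate block, because the 8 arrays of a culture deviated together from their group means (mean r = 0.66, lowest 0.30). The block lowered the residual SD of the median cell cycle gene by a factor of 2.08, against 1.28 for the median of all genes, and the factor was over 2 for 19 of the 37 genes and for 18.1% of all genes. "Called" below means an adjusted p under 0.05 over all 10739 genes, in the model named. The 37 genes were chosen with their detection known, so their shares are set beside those of all genes and carry no test of their own.

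After 6 h of mOSM, WT cultures had lower levels of the CDK inhibitors Cdkn1b and Cdkn2c in both models. The pocket protein gene Rbl1 and the spindle checkpoint gene Mad2l1 were also lower in both, and Cdk2 was higher. E2f1 was called lower with the replicate block and not in the main model. In the main model 5 of the 37 genes were called, 1 higher and 4 lower, against 27.5% of all genes (11.9% higher and 15.6% lower). The count was 2 without mOSM replicate 1, mOSM replicate 2 or control replicate 3. With the replicate block 23 were called, 5 higher and 18 lower, against 45.2% of all genes (17.7% higher and 27.5% lower), and 15 without control replicate 2. Of the 23 calls, 10 stood whichever of the 6 arrays was left out: Ccnd1, Ccnd2, Cdkn1b, Cdkn1c, Cdkn2c, E2f1, Mcm5, Rrm1, Plk1 and Mad2l1. The other 13 were each lost at least once. The median difference over the 37 genes was -0.39, against -0.08 over all genes, and 23 of the 37 genes were lower in all 3 cultures, or 62.2%, against 40.5% of all genes. So the share of the 37 genes called in the main model was below that of all genes, and their share called lower with the block was above it. The 5 calls of higher levels with the block, Cdk2, Ccne1, Mcm6, Pcna and Tyms, were all lost when arrays were scaled by their median, as was the call of Cdk2 in the main model, which moves the median difference of all genes to -0.19, and 17 of the 18 calls of lower levels were kept. Under that scaling 32.5% of all called genes of the main model were higher, against 43.4% as deposited.

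**Figure D2:**
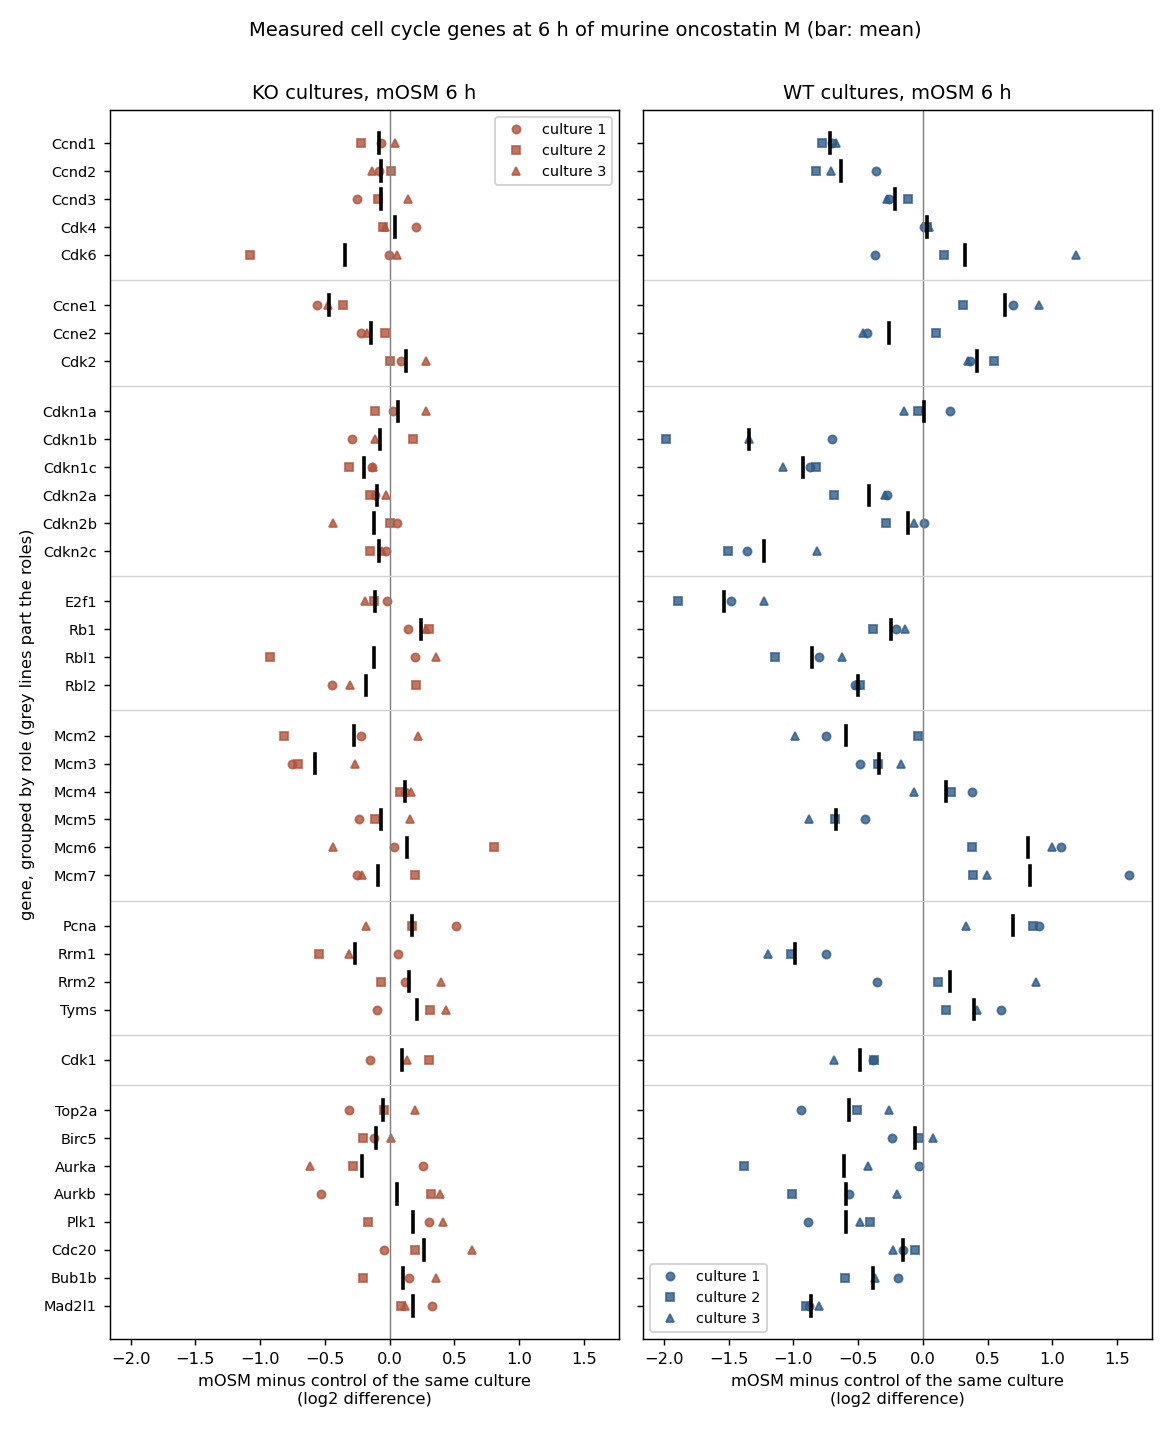
Log2 difference of mOSM minus the control of the same culture at 6 h for each of the 37 measured genes, in KO cultures (left) and WT cultures (right). Symbols are the 3 cultures, the black bar is their mean, and grey lines part the roles in the order of the text. In WT cultures E2f1, Cdkn1b and Cdkn2c have means below -1, and in KO cultures the means lie between -0.57 and 0.26.

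Among the D-type cyclins, which pair with Cdk4 and Cdk6 in early G1, Ccnd1 and Ccnd2 fell with the replicate block and Ccnd3 was not called. Ccnd1 had levels of 12.47, 11.82 and 12.59 in WT cultures 1, 2 and 3 with mOSM, against 13.17, 12.60 and 13.26 in their controls. Each treated array was lower than its own control by a similar amount, and the highest treated array lay just below the lowest control. The difference of Ccnd1 was -0.72 ± 0.31 (adjusted p = 0.0852 in the main model and 1.9e-06 with the block, whose SE was 0.11). Ccnd2 had 12.36, 11.69 and 12.28 with mOSM, against 12.73, 12.51 and 12.99 in controls, a difference of -0.63 ± 0.26 (adjusted p = 0.0683, and 0.000493 with the block). For both genes the 2 other probes also had negative differences. Ccnd3 differed by -0.22 ± 0.31 (adjusted p = 0.667, and 0.14 with the block), Cdk4 by 0.03 and Cdk6, above background on 8 of 48 arrays, by 0.32.

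The next kinase, Cdk2, which with the E-type cyclins drives entry into S phase, was the 1 gene that rose in the main model. Its levels were 10.50, 10.37 and 10.31 in WT cultures 1, 2 and 3 with mOSM, against 10.14, 9.83 and 9.96 in controls. The groups did not overlap, and the rise was small, at 0.42 ± 0.16 (adjusted p = 0.0421, and 0.00993 with the block). All 4 detected Cdk2 probes differed upward, by 0.41 to 0.78. Leaving out any of the 6 compared arrays other than control replicate 1 ended the main call, with adjusted p up to 0.165. Ccne1, the cyclin E1 gene, had 6.40, 5.92 and 7.20 with mOSM, against 5.70, 5.61 and 6.30 in controls, of which 2 of 3 were above background. It was higher in each culture, although the groups overlapped, and its difference of 0.64 ± 0.37 passed with the block alone (adjusted p = 0.215, and 0.0401 with the block). That call was lost on leaving out any of the 6 compared arrays other than mOSM replicate 2, and with the beadchip added, and the difference ran from 0.29 to 0.93 over the arrays left out. Ccne2 was above background on 11 of 48 arrays and was not called.

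Of the 6 CDK inhibitors, 2 fell in the main model and 4 with the block, and none rose in either. Cdkn1b, which encodes p27Kip1, an inhibitor of cyclin E with Cdk2, had levels of 6.86, 5.80 and 6.18 in WT cultures 1, 2 and 3 with mOSM, against 7.57, 7.79 and 7.52 in controls. All treated arrays were lower, least in the first culture. The difference was -1.35 ± 0.32 (adjusted p = 0.00149, and 4.7e-05 with the block), and the call stood when any single array was left out. Cdkn2c, which encodes the Ink4 inhibitor p18Ink4c of Cdk4 and Cdk6, had 8.0, 8.71 and 8.37 with mOSM, against 9.36, 10.22 and 9.19 in controls. It fell by 1.23 on the log2 scale (SE 0.37, adjusted p = 0.0125, and 1.89e-08 with the block), and its 2 other detected probes differed by -1.58 and -0.92. Without the array of WT mOSM replicate 1, or that of WT control replicate 2, the call of Cdkn2c in the main model was lost, with adjusted p up to 0.105.

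Cdkn1c, the p57Kip2 gene, had levels of 12.84, 12.16 and 12.14 with mOSM, against 13.71, 12.99 and 13.22 in WT controls. The 3 matched differences were close to each other, at -0.87, -0.83 and -1.08, and the fall of 0.93 passed with the block (adjusted p = 1.53e-07) and not in the main model (SE 0.70, adjusted p = 0.358). Cdkn2a, whose locus encodes p16Ink4a and p19Arf, had 10.91, 10.48 and 11.85, against 11.19, 11.17 and 12.14, and its fall of 0.42 passed with the block alone (adjusted p = 0.0209), a call lost under median scaling. Cdkn1a, the p21 gene that p53 induces, had 13.08, 12.22 and 13.28, against 12.88, 12.26 and 13.42, with a difference of 0.01 ± 0.30 (adjusted p = 0.992, and 0.975 with the block, whose SE was 0.14). Its cultures differed from each other by more than treated arrays did from controls. Cdkn2b differed by -0.11 and was not called.

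E2f1, the factor that the pocket proteins restrain, showed the largest difference of the 37 genes at 6 h of mOSM. Its levels were 8.06, 7.19 and 8.03 in WT cultures 1, 2 and 3 with mOSM, against 9.54, 9.08 and 9.25 in controls. The groups were well apart, and the second culture fell most. The difference was -1.53, with an SE of 0.72 in the main model (adjusted p = 0.116) and of 0.12 with the block (adjusted p = 3.97e-12). The main SE holds the spread of E2f1 between KO cultures, where the third had a median of 7.62 and the others 9.65 and 9.84. When the third KO culture was left out of the main model, E2f1 passed with adjusted p = 2.77e-06, and with the arrays of the 2 compared groups alone, with adjusted p = 0.00614.

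Rbl1, which encodes the pocket protein p107, had 5.30, 5.13 and 5.79 with mOSM, where 1 of 3 arrays was above background, against 6.11, 6.27 and 6.41 in WT controls, all above it. It fell by 0.86 (SE 0.26, adjusted p = 0.0127, and 0.00731 with the block), or by 0.56 when arrays not above background were raised to the detection floor. Leaving out WT mOSM replicate 2 or WT control replicate 3 ended the main call (adjusted p up to 0.0774). Rb1 differed by -0.24 ± 0.25 and was not called, with a second probe at 0.01, and Rbl2 was above background on 5 of 48 arrays and on 0 of the 6 compared here.

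E2F factors bind short GC-rich words, and such words stand before genes called in opposite directions with the replicate block. Calls in this paragraph are those with the block, and of the genes shown Cdk2 and Rbl1 also passed in the main model. The calls of higher levels, for Mcm6 and Cdk2, were lost under median scaling. Promoter windows of 250 bases before the annotated start were read from RefSeq (GRCm38.p6) for 34 of the 42 genes and searched on both strands for the words TTTGGCGC, TTTCCCGC, TTTCGCGC and TTTGCCGC, where overlapping matches count separately. At least 1 of the words was found for 7 of the 34 genes (Cdk2, Cdkn2a, Rbl1, Mcm5, Mcm6, Mcm7 and Cdk1), where any window of a gene counts. Counted by window, it was found in 611 of 32851 windows of all genes, or 1.86%, so the 2 shares are not in the same unit. The word TTTGAA, known as the core of the cell cycle homology element, was found for 8 of the 34 genes and in 15.99% of all windows. Below are windows of 2 genes called higher, Mcm6 and Cdk2, and of 3 called lower, Mcm5, Rbl1 and Cdk1, in lower case with the matched E2F words alone in capitals (the 2 TTTGAA matches of Cdk1 are left in lower case), 5′ to 3′ on the gene's strand.
Mcm6 (chr1:128359706-128359955, minus strand): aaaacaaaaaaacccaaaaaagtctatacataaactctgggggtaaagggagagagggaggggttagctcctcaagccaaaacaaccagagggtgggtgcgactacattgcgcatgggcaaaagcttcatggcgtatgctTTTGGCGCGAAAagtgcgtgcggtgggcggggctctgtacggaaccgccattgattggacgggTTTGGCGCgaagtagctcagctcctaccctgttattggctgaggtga
Cdk2 (chr10:128705052-128705301, minus strand): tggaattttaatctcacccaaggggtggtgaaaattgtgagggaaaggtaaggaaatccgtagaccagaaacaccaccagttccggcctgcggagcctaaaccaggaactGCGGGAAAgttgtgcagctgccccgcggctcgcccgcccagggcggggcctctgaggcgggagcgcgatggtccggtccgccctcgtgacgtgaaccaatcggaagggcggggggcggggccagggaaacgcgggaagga
Mcm5 (chr8:75109259-75109508, plus strand): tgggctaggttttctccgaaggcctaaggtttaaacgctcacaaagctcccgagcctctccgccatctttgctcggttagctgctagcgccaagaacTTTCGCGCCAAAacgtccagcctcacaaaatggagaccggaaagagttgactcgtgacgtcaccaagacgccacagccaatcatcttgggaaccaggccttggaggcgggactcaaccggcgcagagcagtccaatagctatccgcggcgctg
Rbl1 (chr2:157204535-157204784, minus strand): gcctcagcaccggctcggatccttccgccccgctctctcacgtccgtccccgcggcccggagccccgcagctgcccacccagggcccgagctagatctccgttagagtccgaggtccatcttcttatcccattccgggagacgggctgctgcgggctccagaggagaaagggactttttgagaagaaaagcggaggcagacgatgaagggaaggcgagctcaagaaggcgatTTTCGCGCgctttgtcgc
Cdk1 (chr10:69352913-69353162, minus strand): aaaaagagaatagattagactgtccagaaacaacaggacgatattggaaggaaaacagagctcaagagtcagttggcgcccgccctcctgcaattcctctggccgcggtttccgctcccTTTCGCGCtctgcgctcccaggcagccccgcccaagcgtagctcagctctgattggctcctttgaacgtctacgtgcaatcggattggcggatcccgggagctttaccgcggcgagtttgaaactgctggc
The 12 capitals of Mcm5 and the first 12 of Mcm6 each hold 2 words that overlap on opposite strands. A match describes these letters and does not show that a factor binds there.

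The replication genes split by member. The subunits of the Mcm2-7 helicase, which opens the DNA at origins, did not move together: with the block Mcm2 and Mcm5 fell, Mcm6 rose, and Mcm3, Mcm4 and Mcm7 were not called, while in the main model 0 of the 6 were called. Mcm5 had levels of 7.63, 7.34 and 7.17 with mOSM, against 8.09, 8.02 and 8.05 in WT controls, a difference of -0.67 ± 0.45 (adjusted p = 0.294, and 0.00225 with the block). Mcm2 had 6.11, 6.27 and 6.18, against 6.86, 6.31 and 7.17, and differed by -0.59 ± 0.27 (adjusted p = 0.10, and 0.015 with the block). Its second culture hardly differed. Mcm6 had 8.95, 9.06 and 9.08, against 7.88, 8.68 and 8.08, and rose by 0.81 with the block (main SE 0.33 and adjusted p = 0.0655, and 0.00961 with the block), with its 2 other probes at 0.48 and 0.53. Mcm7 differed by 0.83 ± 0.52, while its second probe, above background on 9 arrays, differed by -0.05.

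Of the other replication factors, Rrm1, the large subunit of the reductase that makes deoxynucleotides, had 9.43, 8.38 and 9.38 with mOSM, against 10.18, 9.39 and 10.58 in WT controls. Each treated array was lower than its own control by 0.75 to 1.19, although the groups overlapped, with the second culture low in both. Its difference of -0.99 ± 0.72 passed with the block alone (adjusted p = 0.337, and 1.5e-07 with the block). Pcna, the sliding clamp of the polymerases, had 7.03, 7.52 and 7.20, against 6.13, 6.67 and 6.87, and rose by 0.69 with the block (main adjusted p = 0.0832, and 0.0379 with the block). Tyms, which makes thymidylate, rose by 0.40 with the block (main adjusted p = 0.36, and 0.0297 with the block), with treated levels of 8.71 to 9.05 and control levels of 8.33 to 8.63. Rrm2, the small reductase subunit, was above background on 31 of 48 arrays and was not called.

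Genes of mitosis were lower or did not pass. Mad2l1, a spindle checkpoint protein that holds back Cdc20, had levels of 7.60, 7.45 and 7.77 in WT cultures 1, 2 and 3 with mOSM, against 8.48, 8.36 and 8.58 in controls. The 3 cultures fell by nearly equal amounts, and the groups were well apart. The difference was -0.86 ± 0.30 (adjusted p = 0.0268, and 6.33e-07 with the block), and its second probe differed by -0.57. In the main model, leaving out mOSM replicate 1 or 2, or control replicate 1 or 3, ended this call (adjusted p up to 0.0945), as did averaging its probes (adjusted p = 0.0873). Cdk1, the kinase of mitotic entry, had 7.64, 7.34 and 7.48, against 8.02, 7.72 and 8.17, and differed by -0.48 ± 0.54 (adjusted p = 0.565, and 0.00686 with the block).

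Plk1 had 6.63, 6.59 and 6.55 with mOSM, against 7.52, 7.00 and 7.04 in WT controls, and differed by -0.59 ± 0.85 (adjusted p = 0.664, and 0.00501 with the block). Top2a had 5.37, 5.74 and 5.73, of which 1 of 3 was above background, against 6.31, 6.26 and 5.99, and differed by -0.57 ± 0.60 (adjusted p = 0.532, and 0.0237 with the block). The treated and control arrays of both genes did not overlap. The Aurora kinase genes Aurka and Aurkb and the checkpoint kinase gene Bub1b also passed with the block alone, at -0.61, -0.59 and -0.39 (adjusted p = 0.0392, 0.00848 and 0.0408 with the block). Birc5, which encodes survivin, and Cdc20 differed by -0.06 and -0.15 and were not called. The other detected probes differed by -0.22 and -0.38 for Birc5, and by -0.17, -0.57 and -0.36 for Cdc20. With the block and the mean of the detected probes, Cdc20 was called lower. Mki67, the usual marker of dividing cells, has no probe here.

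Batches bear on these values. Of the 8 beadchips, 1 held arrays of both groups, with 2 mOSM arrays and 1 WT control. On it the differences were -1.45 for Cdkn1b, -1.86 for Cdkn2c, -1.46 for E2f1, -1.06 for Rbl1, -0.83 for Mad2l1 and 0.61 for Cdk2. The single control shares its culture with at most 1 of the 2 mOSM arrays, so differences on this chip also hold spread between cultures. With the beadchip as a block in the main model, Cdkn1b, Cdkn2c and Rbl1 passed (adjusted p = 0.00809, 0.0209 and 0.00613), and Mad2l1 and Cdk2 did not (adjusted p = 0.075 and 0.0933). The same term moved the differences of Ccnd1 to -0.36, of Ccnd2 to -0.30 and of Cdkn2a to -0.14, against -0.72, -0.63 and -0.42 without it, and on the shared chip these were -0.45, -0.49 and -0.47. The main model holds no culture term. With both culture and beadchip terms, 18 of the 23 calls with the block stood, those of Ccnd1, Ccnd2 and Cdkn2a among them. The calls of Aurka, Ccne1, Mcm2, Pcna and Tyms were lost.

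Genes of the same pathways outside the list were counted in lists also chosen with these results known. Of 33 other DNA replication genes measured, of 42 listed, 0 were higher and 5 lower in WT cultures at 6 h of mOSM in the main model (1 and 8 with the block). Of all genes, 15.6% were lower in the main model and 27.5% with the block, so the share of this list called lower was near the background in both. Rpa1, a subunit of the single-strand binding protein, had a mean level of 10.28 ± 0.11, against 11.14 ± 0.08 in controls (SD, n = 3 each), a fall of 0.86 (SE 0.12, adjusted p = 1.33e-06). Lig1, the ligase that joins Okazaki fragments, fell by 0.81, Chaf1a, which loads histones on new DNA, by 0.79, and Rpa3, the small subunit beside Rpa1, by 0.77 (adjusted p = 0.0138, 0.0146 and 0.000668). Of 19 other mitosis genes measured, of 35 listed, 0 were called in the main model, and 1 was higher and 9 lower with the block. Cenpa, the histone variant of centromeres, Anln, a scaffold of the cleavage furrow, Nusap1, a spindle protein, and Cdca8, a partner of Aurkb, differed by -0.93, -0.86, -0.79 and -0.73 (adjusted p = 1.59e-07, 2.61e-05, 0.000591 and 0.000291 with the block). The median difference was -0.21 over the replication list and -0.37 over the mitosis list, against -0.08 over all genes.

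Among 24 other cell cycle regulators measured, of 36 listed, 5 rose and 1 fell in the main model (7 and 4 with the block), against 11.9% of all genes higher and 15.6% lower (17.7% and 27.5% with the block). Myc, the growth-promoting transcription factor, had 7.47 ± 0.10 with mOSM, where all 3 arrays were above background, against 5.21 ± 0.51 in WT controls, where 1 was, and rose by 2.26 (SE 0.43, adjusted p = 0.000102), or by 1.79 with arrays raised to the floor. Gadd45a, a stress-induced inhibitor of growth, had 12.20 ± 0.35, against 9.98 ± 0.36, and rose by 2.22 (SE 0.54, adjusted p = 0.00203). The antiproliferative genes Btg1 and Tob1, of 1 family, moved apart: Btg1 rose by 0.96 (adjusted p = 7.2e-05) and Tob1 fell by 1.24 (adjusted p = 0.00216). In KO cultures given mOSM these genes differed by -0.12 for Myc, 0.50 for Gadd45a, 0.35 for Btg1 and -0.18 for Tob1, and 0 genes of the 3 lists were called in either model.

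In KO cultures given mOSM for 6 h, 0 of the 37 genes were called in either model, against 0% of all genes in the main model and 0.0466% with the block, and 1 gene, Mcm3, had an unadjusted p under 0.05. E2f1 had levels of 9.56, 9.70 and 7.56 in KO cultures 1, 2 and 3 with mOSM, against 9.58, 9.83 and 7.75 in KO controls. The difference between cultures was far larger than that between treated and control arrays, which was -0.11 ± 0.72 (block SE 0.12). Cdkn1b had 7.29, 7.57 and 7.35, against 7.59, 7.39 and 7.46, and differed by -0.08 ± 0.32. Ccnd1, Ccnd2, Ccnd3, Cdkn1a, Cdkn1c, Cdk1 and Top2a differed by -0.08, -0.07, -0.07, 0.06, -0.19, 0.10 and -0.05. Socs3, a feedback inhibitor that these cytokines induce, was 1.76 ± 0.34 higher with mOSM in KO cultures (adjusted p = 0.0921, and 0.0275 with the block), by 0.75, 1.21 and 3.33 in cultures 1, 2 and 3, and 4.98 ± 0.34 higher in WT cultures (adjusted p = 8.35e-13).

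**Figure D3:**
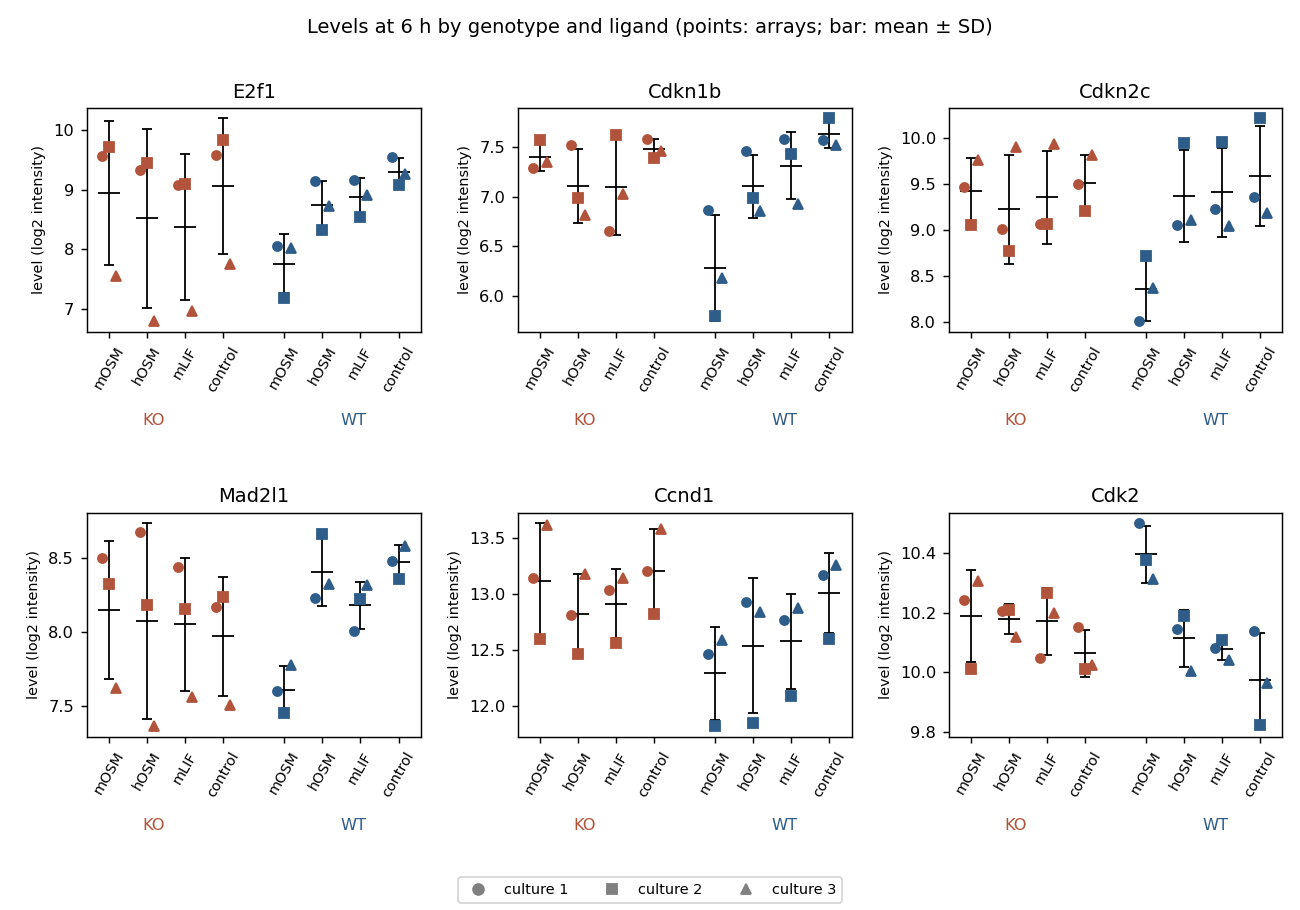
Level (log2 intensity) at 6 h of E2f1, Cdkn1b, Cdkn2c, Mad2l1, Ccnd1 and Cdk2 by ligand, with KO groups left of WT groups and the control last in each genotype. Points are arrays with a symbol per culture, and bars are mean ± SD of 3 arrays. The WT mOSM arrays stand below the WT controls for 5 genes and above them for Cdk2, and the third KO culture is low in all KO groups for E2f1 and Mad2l1.

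The test of the difference between genotypes, the mOSM effect in KO minus that in WT cultures, gave 0 calls among the 37 genes in the main model, against 9.71% of all genes, and 4 genes had an unadjusted p under 0.05. Without WT mOSM replicate 1, Cdkn1b passed in the main model (adjusted p = 0.0296). With the block it called 11, 10 positive and 1 negative, against 26.3% of all genes (16.3% positive and 9.95% negative). The positive ones were E2f1 at 1.42 (adjusted p = 1.44e-07 with the block), Cdkn1b at 1.27 (0.0076), Cdkn2c at 1.15 (6.39e-05) and Mad2l1 at 1.04 (2.52e-05), followed by Plk1, Cdkn1c, Rrm1, Ccnd1, Cdk1 and Ccnd2 at 0.56 to 0.78. Ccne1 was the negative one, at -1.10 (adjusted p = 0.0212). Ccnd3, Cdkn1a and Top2a differed by 0.15, 0.06 and 0.52 and were not called. Plk1 was above background on 0 arrays of the third KO culture, and without that culture the calls of Plk1 and Cdk1 were lost and 9 of the 11 remained. Leaving out single arrays ended the call of Ccnd2, Ccne1, Cdk1 or Plk1 at least once, and never that of the other 7. Without KO control replicate 3 the value of Plk1 in the main model was -0.09. E2f1 and Mad2l1 passed in the main model without the third KO culture (adjusted p = 0.00437 and 0.00409).

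The ligands that act through the LIF receptor alone gave fewer calls. In KO cultures hOSM at 6 h lowered E2f1 and Ccnd1 with the block, by 0.53 and 0.38 (adjusted p = 0.00446 and 0.0259), so that 2 of the 37 genes were called, against 6.99% of all genes. In the main model 0 were called, against 0.829%. mLIF lowered E2f1 and Cdkn1c in KO cultures with the block, by 0.67 and 0.44 (adjusted p = 0.000317 and 0.0198), again 2 genes, against 7.89%, with 0 in the main model, against 0.931%, and 0 and 2 genes had an unadjusted p under 0.05 for hOSM and mLIF. All 3 matched differences of these 4 effects were negative. The main model does not match cultures, and there E2f1 turned to 0.33 without hOSM replicate 3 and to 0.03 without mLIF replicate 3, and Cdkn1c to 0.18 without that mLIF array.

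In WT cultures hOSM at 6 h lowered E2f1, Ccnd1, Ccnd2 and Cdkn1c with the block, by 0.56, 0.47, 0.48 and 0.45 (adjusted p = 0.00282, 0.00581, 0.043 and 0.0218), or 4 of the 37 genes, against 5.63% of all genes (2.96% higher and 2.67% lower). mLIF lowered E2f1 and Ccnd1, by 0.42 and 0.43 (adjusted p = 0.0315 and 0.0128 with the block), or 2 of 37, against 5.45% (2.86% higher and 2.59% lower). In the main model 0 genes were called for either ligand, against 0.661% for hOSM and 0.494% for mLIF (0.0559% lower), and 0 of the 37 had an unadjusted p under 0.05. E2f1 was thus called lower with the block in all 4 of these groups, with levels in WT cultures 1, 2 and 3 of 9.14, 8.33 and 8.73 with hOSM, of 9.17, 8.53 and 8.91 with mLIF, and of 9.54, 9.08 and 9.25 in controls. The groups share their controls, so these effects are not independent of each other. The test of a difference between KO and WT in the effect of hOSM or mLIF, at 1 h or 6 h, called 0 of the 37 genes and 0% of all genes in both models, and 0 of the 37 had an unadjusted p under 0.05 in the main model.

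mOSM was also set directly against the other ligands in WT cultures at 6 h. Against hOSM, 0 genes were called in the main model (4 had an unadjusted p under 0.05), against 15.9% of all genes, and with the block 9 were called, all lower with mOSM, against 33.1% (20.8% lower). These were Cdkn2c at -1.01, E2f1 at -0.97, Cdkn1b at -0.82, Mad2l1 at -0.80, Mcm2 at -0.75, Rrm1 at -0.63, Plk1 at -0.50, Cdkn1c at -0.48 and Rb1 at -0.40. Ccnd1 and Ccnd2, which hOSM also lowered, were not among them. Against mLIF, Cdkn1b was called in the main model, lower with mOSM by 1.03 (SE 0.32, adjusted p = 0.0229), or 1 of 37 genes, against 15.5%, and the call was lost under median scaling and without mOSM replicate 2 or 3 or mLIF replicate 1 or 2 (adjusted p up to 0.161). With the block 13 were called, 12 lower and 1 higher, against 31.5%. The lower ones were the 9 genes just named, at -1.11 for E2f1 to -0.37 for Rb1, and Ccnd1, Cdkn2a and Aurka, at -0.29, -0.41 and -0.68. Ccne1 was the higher one, at 0.77.

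At 1 h 0 of the 37 genes were called for any ligand in the main model, and 1 gene, Mcm4, with the block. Mcm4, a helicase subunit, had levels of 11.54, 11.41 and 11.68 in WT cultures 1, 2 and 3 given mOSM, against 10.98, 10.86 and 11.11 in controls, and 11.10, 10.92 and 11.04 at 6 h of mOSM. The 3 matched differences at 1 h were nearly the same, at 0.56, 0.55 and 0.57. Mcm4 rose by 0.56 with the block (SE 0.11, adjusted p = 0.00214) and missed the threshold in the main model (SE 0.14, adjusted p = 0.0544), so that 1 of 37 genes was called with the block, against 1.64% of all genes (1.41% higher and 0.233% lower), and 0 without it, against 0.745%. In KO cultures hOSM at 1 h gave the same single call with the block, Mcm4 at 0.49 (adjusted p = 0.0132), against 1.14% of all genes (0.968% higher and 0.168% lower), and 0 calls in the main model, against 0.4%. In the other 4 groups at 1 h, 0 of the 37 genes were called in either model. Of all genes, hOSM in WT cultures at 1 h called 0.466%, and 1.45% with the block (1.22% higher and 0.233% lower), with 3 of the 37 genes at an unadjusted p under 0.05. For mLIF in WT cultures at 1 h these were 0.624% (0.0559% lower), 1.69% (1.44% higher with the block) and 0 genes. For mOSM in KO cultures at 1 h they were 0.00931%, in either model, and 0 genes, and for mLIF in KO cultures at 1 h 0.428%, 1.15% and 1 gene. The test of a difference between KO and WT in the effect of mOSM at 1 h called 0 of the 37 genes, against 0.0745% of all genes and 0.372% with the block, with 1 gene at an unadjusted p under 0.05.

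The change of the WT mOSM effect from 1 h to 6 h was called for 0 of the 37 genes in the main model, against 13% of all genes, and for 11 with the block, 2 higher and 9 lower, against 30.4%. E2f1 had levels of 9.91, 9.30 and 9.51 at 1 h of mOSM, against 9.80, 9.26 and 9.51 in the 1 h controls, so that its effect changed by -1.58 by 6 h (adjusted p = 1.57e-08 with the block). Mcm6, with 7.55, 8.09 and 8.52 at 1 h of mOSM, against 8.56, 8.29 and 8.36 in the 1 h controls, changed by 1.16, the largest positive change (adjusted p = 0.0136 with the block). The others were Ccne1, which changed by 1.05, and Cdkn2c, Cdkn1b, Rrm1, Cdkn1c, Mad2l1, Mcm5, Ccnd2 and Ccnd1, at -0.98 to -0.54. The plot of 1 h against 6 h differences shows the spread of the genes along the 6 h axis.

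**Figure D4:**
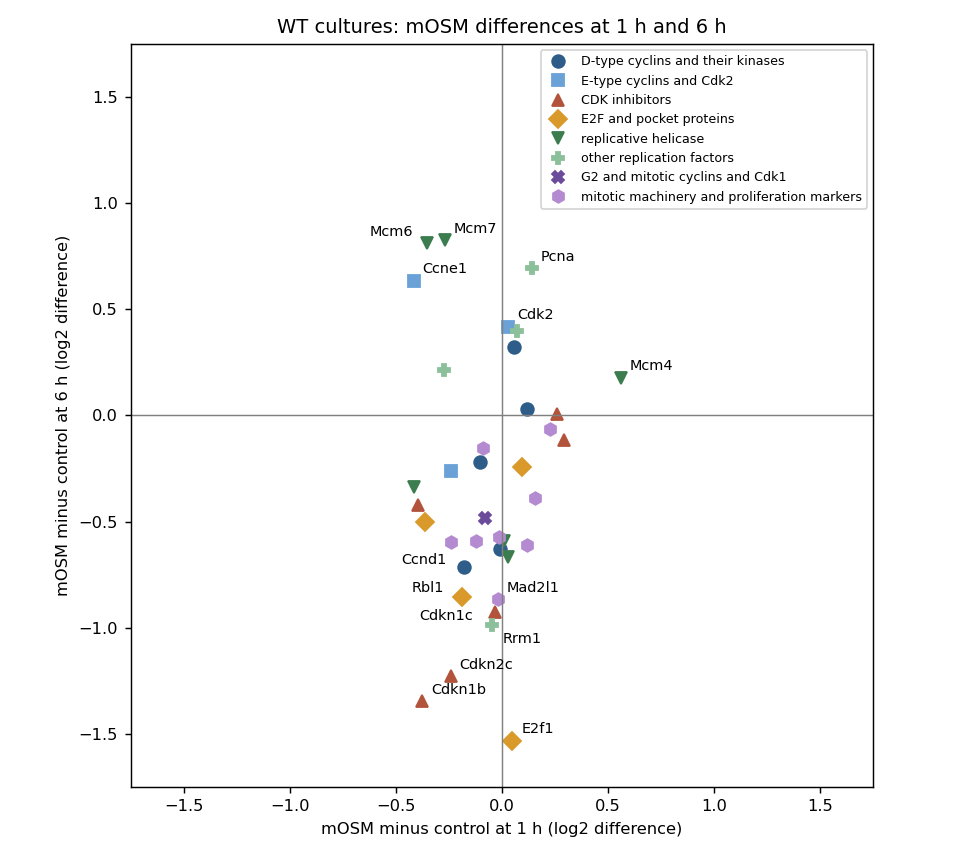
Log2 difference of WT mOSM minus control at 1 h (horizontal axis) and at 6 h (vertical axis) for the 37 measured genes, with a colour and symbol per role. Differences at 1 h run from -0.42 to 0.56 and at 6 h from -1.53 to 0.83, and E2f1 lies near 0 at 1 h and at the bottom at 6 h.

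Without ligand, no difference between KO and WT cultures was called among the listed genes, which does not show that their levels were equal. This comparison lies between cultures, so a term per culture cannot take out the spread between them. That spread includes the low levels of the third KO culture. The residual SD in the main model was 0.92 for E2f1 and 1.08 for Plk1, so only large differences in such genes could be called. At 6 h 0 of the 37 genes were called between KO and WT controls, against 0.0279% of all genes, and at 1 h 0, against 0.0186%, and 0 were called with the culture as a random effect, against 0.0372% and 0.0838%. In the main model 0 genes at 6 h and 1 at 1 h had an unadjusted p under 0.05. At 6 h the lowest member was Mad2l1, at -0.50 ± 0.30, with levels of 8.17, 8.24 and 7.51 in KO controls and 8.48, 8.36 and 8.58 in WT controls. Between the 6 h and 1 h controls of a genotype, 0 genes were called in either model, in KO (against 0.279% and 1.39% of all genes) and in WT (against 0.428% and 1.56%), and 0 had an unadjusted p under 0.05 in the main model.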

How the data were processed

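The authors exported bead intensity values and detection p-values per probe from BeadStudio, and deposited a table of log2 values normalized with limma, per the submitters' processing notes; versions and settings are not given in the sources used here. Normalizing the deposited intensities with neqc gave log2 values within 0.03376 of the deposited ones, which were used. Depth does not apply to arrays: median signals ran from 116.3 to 169.8 and detected probes from 14231 to 16767, and 3 arrays per group limit the precision. Probes detected on at least 3 arrays (16799) were reduced to the brightest per gene.

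Models with 16 group means over all 48 arrays were fitted with limma 3.58.1 in R 4.3.3, with Benjamini-Hochberg adjustment over 10739 genes, and tested on simulated data. The block is a term per culture (genotype and replicate number), and a random effect (consensus correlation 0.427) for KO against WT. Deviations of arrays from their group means correlated by 0.66 on average within a culture (lowest 0.302). The mean was -0.30 between cultures of a genotype and -0.001 between genotypes at the same number. The -0.30 follows from subtracting means of 3 arrays per group and is no further evidence of pairing. The labels give 2 thawing days and the design text 3 occasions. Members and lists were chosen with earlier results of these data known. Members are named where they pass in either model, with 9 fixed genes named at 6 h of mOSM, and up to 4 genes of each other list. Figures were drawn with matplotlib 3.10.9.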

Additional observations from a re-analysis of the deposited data

Results flagged for a closer look

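With the replicate block, the effect of mOSM at 6 h differed between KO and WT cultures (KO minus WT) for 11 of the 37 genes. Of all genes 26.3% were called there, so the count was near that share. By direction, 27% of the 37 were positive and 2.7% negative, against 16.3% and 9.95% of all genes. None of the 11 genes passed in the main model (adjusted p from 0.0696 to 0.791 there). The differences were 1.42 for E2f1, 1.27 for Cdkn1b, 1.15 for Cdkn2c, 1.04 for Mad2l1, 0.78 for Plk1, 0.73 for Cdkn1c, 0.72 for Rrm1, 0.63 for Ccnd1, 0.58 for Cdk1, 0.56 for Ccnd2 and -1.1 for Ccne1.

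With the block, the WT effect of mOSM also differed between 6 h and 1 h (6 h minus 1 h) for 11 of the 37 genes, and again for none in the main model. Of all genes 30.4% were called there with the block, so this count too was near the share of all genes. By direction, 5.41% of the 37 were higher and 24.3% lower, against 11.5% and 18.9% of all genes. The changes were -1.58 for E2f1, -0.98 for Cdkn2c, -0.97 for Cdkn1b, -0.94 for Rrm1, -0.9 for Cdkn1c, -0.84 for Mad2l1, -0.7 for Mcm5, -0.62 for Ccnd2, -0.54 for Ccnd1, 1.16 for Mcm6 and 1.05 for Ccne1.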

How the results depend on the processing

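Counts of called genes among the 37 depended mainly on how culture spread was treated. The share of all genes called under each setting is not set beside the counts here. A change in a count therefore does not show a trait particular to the 37 genes. With the replicate block, which pairs treated and control arrays of a culture, the counts were 23 for WT mOSM at 6 h, 4 for WT hOSM and 2 for WT mLIF at 6 h, 2 each for KO hOSM and KO mLIF at 6 h, 1 for mOSM in WT and 1 for hOSM in KO cultures at 1 h, 11 for the difference between genotypes at 6 h of mOSM, 9 and 13 for mOSM against hOSM and mLIF, and 11 for the change from 1 h to 6 h; the block changed no other count. Without the third KO culture the main counts were 11 for WT mOSM at 6 h, 1 at 1 h, 1 for KO mLIF at 6 h, 2 for the difference between genotypes, 5 and 4 for mOSM against hOSM and mLIF and 3 for the change over time. Fits of the compared groups alone gave 12 for WT mOSM at 6 h and 1, 2, 3 and 3 for the same last 4 comparisons. The beadchip as a block gave 3 for WT mOSM at 6 h and 2 against mLIF. Median scaling gave 4 against hOSM and 0 against mLIF, and 15.9% and 54.4% of all called genes were higher there, against 42.1% and 41.8% as deposited. A filter of 24 arrays gave 1 at 1 h of mOSM, 1 against hOSM and 2 against mLIF; no background correction gave 1 at 1 h; the mean of the probes gave 1, 3, 2 and 2 for the last 4 comparisons. With the block, the difference between genotypes gave 7 calls under median scaling (6 of them among the 11), 9 with the beadchip (8 of them) and 9 without the third KO culture (all 9), and WT mOSM at 6 h gave 17, 18 and 23, all among its 23.

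Leaving out single arrays gave 2 to 6 calls for WT mOSM at 6 h (15 to 19 with the block), 0 to 1 for the difference between genotypes (8 to 11 with the block), 0 to 1 for KO hOSM at 1 h and for mOSM against hOSM, 0 to 2 against mLIF, and 0 to 0 in the other comparisons. The lone calls came without WT mOSM replicate 1 (Cdkn1b, between genotypes and against hOSM), without WT hOSM replicate 1 (against hOSM) and without KO hOSM replicate 2 (Mcm4). Of 92 values of named genes, 73 passed with the block and not in the main model. Genes are named where they pass in either model, so this count follows in part from that rule. Normalizing the intensities anew, no detection filter and thaw day (run for 2 comparisons) changed no count by over 1.5 times, and no value called in the main model changed sign under any setting run. Leaving out 1 array in the main model turned the sign of 4 values called with the block: E2f1 with hOSM and with mLIF in KO cultures at 6 h (up to 0.33 and 0.03), Cdkn1c with mLIF there (up to 0.18), and Plk1 between genotypes (down to -0.09). Arrays not above background limit Rbl1, Top2a and Ccne1. In the third KO culture Plk1, Top2a and Aurkb were above background on 0 of 8 arrays, and their levels there are bounds. Aurka, Bub1b and Birc5 were above it on 1, 3 and 4 of those 8 arrays, and Cdk1, Cdc20 and Mad2l1 on all 8.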
